A study of Mus musculus with 6 samples.

Results

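Complement is a system of plasma and membrane proteins that marks surfaces for removal. Of its genes, 8 were followed here in bEND.3 brain endothelial cells after knockdown of the long non-coding RNA Gm39822. They were chosen by symbol, as C3, C4b, Cfb, C1ra, C1rl, Serping1, Cd55 and Cd59a. All 8 were found among the 49315 genes of the count table, and all 8 were among the 18234 genes tested, for which 2 or more samples had to reach 5 counts. There were 5 components of the cascade and 3 regulators among them.

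RNA sequencing was performed in 6 samples of the mouse line bEND.3, an established, transformed line of brain endothelial cells. The 4 GapmeR samples received an antisense LNA GapmeR against Gm39822 and the 2 Negative Control samples received a negative control GapmeR, each at 100 nM and each by Lipofectamine transfection. A GapmeR is a short DNA oligonucleotide with modified ends that directs RNase H to its target RNA. The time after transfection is not given in the sources used here. One line and 1 GapmeR sequence stand for the knockdown, and no label states that the samples of a group came from separate cultures, so p-values measure the spread between these samples, which may be technical. Because whole cultures were measured, fewer cells of a type and less RNA per cell cannot be told apart.

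In the classical pathway C1q recognises a surface and its proteases C1r and C1s cleave C4 and C2. In the alternative pathway factor B binds C3b and is cleaved by factor D, and properdin holds the complex together. Both routes cleave C3, the central component, and lead to the membrane attack complex. Host cells limit this with inhibitors. C1 inhibitor blocks C1r and C1s in plasma, CD55 breaks up the convertases on the membrane, and CD59 stops assembly of the pore. The liver makes most plasma complement, while endothelial cells carry CD55 and CD59 and make some components themselves.

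The libraries held 30264086 to 37117934 counts after knockdown and 29261988 and 34266811 in the controls, so that 3 counts in a library correspond to between 0.0771 and 0.110 CPM. This unit states a gene's counts relative to the depth of its library, and all CPM values are scaled by edgeR's TMM factors. The targeted RNA, Gm39822, was counted 2, 1, 4 and 2 times after knockdown (samples in numerical order, here and throughout) and 61 and 56 times in the controls (log2 fold change -4.82, SE 0.41, adjusted p = 8.82e-08 by edgeR's quasi-likelihood test). The markers of the labelled cell type were present, with the 11 endothelial markers summing to between 8735 and 9914 CPM in the GapmeR samples and 10210 and 10650 CPM in the controls. GapmeR samples 3 and 4 stood apart from samples 1 and 2 in some markers of other cell types. The 9 macrophage or microglia markers summed to 147, 134, 179 and 174 CPM after knockdown and 107 and 109 CPM in the controls, and most of each sum was Cd68, which endothelial cells can also express. Without Cd68 they summed to 53.6 and 57.4 CPM in samples 3 and 4, against 20.6 to 23.9 CPM in samples 1 and 2 and 19.9 to 20.0 CPM in the controls. Sample 3 alone was high in the summed fibroblast or pericyte markers, at 50.4 CPM. The other GapmeR samples were at 13.7 to 17.6 CPM and the controls at 13.5 and 14.6 CPM. Most of the sample 3 sum was Col1a1 (38.0 CPM), whose count was 1179 against 46 to 148 in the other 5 samples. Pdgfra, at 10.2 CPM in sample 3, lay within the range of the other samples (9.43 to 12.1 CPM). Of these marker lists, 2 of 9 macrophage or microglia markers (Cd68 and Fcer1g) were called higher by edgeR, 3 higher by DESeq2's Wald test (Ptprc also), and 3 higher and 1 lower had an unadjusted edgeR p under 0.05. Cd14 was lower in the GapmeR samples without a call (log2 fold change -0.48, edgeR adjusted p = 0.0805). Of the fibroblast or pericyte markers, 0 of 7 were called by edgeR or by DESeq2's Wald test (1, Dcn, had an unadjusted p under 0.05). Each marker of both lists had counts in every sample, but some had few. Aif1 had 2 to 10 counts, Cx3cr1 4 to 16, Lum 1 to 8 and Cspg4 4 to 8.

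Genes were called at an adjusted p under 0.05 over all genes tested. Of the 8 complement genes, 2 were lower in the GapmeR samples, Cd55 and C1ra, and 0 were higher by edgeR. Over all 18234 genes tested, 45.3% were called, of which 20.0% of genes tested were lower and 25.4% higher, so the share of complement genes called, 25.0%, was below that of the table. No further member reached an unadjusted p under 0.05 in either direction, and DESeq2's Wald test called 1 higher, C4b, and 1 lower, Cd55. The GapmeR and control values did not overlap for 4 of the 8, namely C4b, Cfb, C1ra and Cd55, against 59.2% of all genes tested. The median log2 fold change was -0.25 for the 8 genes and 0.03 for all genes tested.

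The sequences before the starts of the pair that fell and of C3 are shown here because the results turn on these genes. RefSeq promoter sequences of GRCm38.p6 matched 5 of the 8 by symbol, and each is given 5′ to 3′ over the 250 bases before the annotated start. Capitals mark matches, on either strand, to a C/EBP site (TTGCNNAA) or to a GC box (GGGCGG). For Cd55 the sequence belongs to the start that the promoter table holds, which lies inside the gene body as RefSeq bounds it.
Cd55 (chr1:130462745-130462994, minus strand): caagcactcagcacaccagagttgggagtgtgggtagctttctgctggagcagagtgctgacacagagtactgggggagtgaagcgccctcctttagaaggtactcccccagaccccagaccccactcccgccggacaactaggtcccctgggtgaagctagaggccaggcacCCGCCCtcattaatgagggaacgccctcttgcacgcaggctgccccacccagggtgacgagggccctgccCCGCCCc
C1ra (chr6:124512371-124512620, plus strand): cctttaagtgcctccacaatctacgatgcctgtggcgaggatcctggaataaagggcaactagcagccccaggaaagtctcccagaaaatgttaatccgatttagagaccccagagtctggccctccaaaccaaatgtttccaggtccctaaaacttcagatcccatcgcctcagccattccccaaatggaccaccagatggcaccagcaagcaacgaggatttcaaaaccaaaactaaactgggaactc
C3 (chr17:57228137-57228386, minus strand): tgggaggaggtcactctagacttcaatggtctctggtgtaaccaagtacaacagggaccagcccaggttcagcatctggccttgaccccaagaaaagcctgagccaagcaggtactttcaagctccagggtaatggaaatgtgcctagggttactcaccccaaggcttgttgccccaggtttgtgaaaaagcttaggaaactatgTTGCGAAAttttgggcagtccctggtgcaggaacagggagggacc
The Cd55 sequence was the richest of the 5 in G and C, at 64.0%, and held 2 GC boxes, both on the strand opposite to the gene. The C3 sequence (52.0% G and C) held 1 C/EBP match, and the C1ra sequence (49.6%) held none of the 5 motifs searched. Of 32851 promoters of this length, 32.7% held a GC box and 9.56% a C/EBP match. The other 3 motifs were the interferon-gamma activated site (TTCNNNGAA, in 7.02% of promoters), the interferon-stimulated response element core (GAAANNGAA, in 7.13%) and an NF-kB site core (GGGANNTTC, in 3.23%). Of these, the response element core was matched once, in Cd59a, and C1rl held a further C/EBP match. A match is a description of the letters only.

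Cd55 had the smallest adjusted p of the 8 genes. It encodes decay-accelerating factor, a lipid-anchored membrane protein that dissociates the C3 and C5 convertases. Its counts were 164, 268, 153 and 164 after knockdown and 273 and 269 in the controls, that is 4.84, 6.88, 4.93 and 5.08 CPM against 9.97 and 8.43 CPM. Every GapmeR sample lay below both controls, and sample 2 was the nearest to them. Cd55 averaged 5.43 ± 0.972 CPM (SD, n = 4) in GapmeR samples, against 9.20 ± 1.09 CPM (SD, n = 2), and so fell to 0.594 times the control level (log2 fold change -0.75, SE 0.15, edgeR adjusted p = 8.32e-04). It was called lower in all 13 alternative settings, with log2 fold changes from -0.89 to -0.60. The gene lies at chr1:130429798-130465009 of mm10 on the minus strand. Its paralog Cd55b, which shares 2.14% of the 150-base windows of the Cd55 transcript, had 0 counts in every sample.

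Cd59a, the other membrane inhibitor, encodes the anchored protein that binds C8 and C9 and blocks pore formation. It had 371, 547, 337 and 436 counts after knockdown and 380 and 435 in the controls. The GapmeR values fell on both sides of the controls, at 11.0, 14.1, 10.9 and 13.5 CPM against 13.9 and 13.6 CPM. The difference did not pass the test (log2 fold change -0.15, SE 0.12, edgeR adjusted p = 0.313) and was within the spread of the GapmeR samples (12.3 ± 1.67 CPM, SD, n = 4, against 13.8 ± 0.171 CPM, SD, n = 2). Cd59a (chr2:104095753-104115410) lies 4.594 kb from its paralog Cd59b on the same strand, and 3.35% of its windows are shared with that gene. Of the Cd59b windows 9.18% are shared with Cd59a, so part of the Cd59b count could come from Cd59a. Cd59b was far below Cd59a in CPM, at 0.603 ± 0.116 (SD, n = 4) after knockdown, and was higher in the GapmeR samples, with 17, 29, 16 and 21 counts against 6 and 7 (log2 fold change 1.45, SE 0.42, edgeR adjusted p = 0.0107), a call that was lost when either control was left out. The pair of CD59 genes therefore gave different calls, although the difference between them was not tested.

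Serping1, which encodes C1 inhibitor, was close to the limit of detection. It had 5, 3, 22 and 10 counts after knockdown and 5 and 4 in the controls. Samples 3 and 4 were above both controls, at 0.709 and 0.310 CPM against 0.183 and 0.125 CPM, while sample 1 lay between the controls (0.148 CPM) and sample 2 below them (0.0771 CPM). The difference did not pass the test (log2 fold change 0.96, SE 0.81, edgeR adjusted p = 0.353), and the log2 fold change was 0.20 without GapmeR sample 3 and turned to -0.43 with GapmeR samples 1 and 2 only. Serping1 is at chr2:84765360-84775444.

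**Figure D1:**
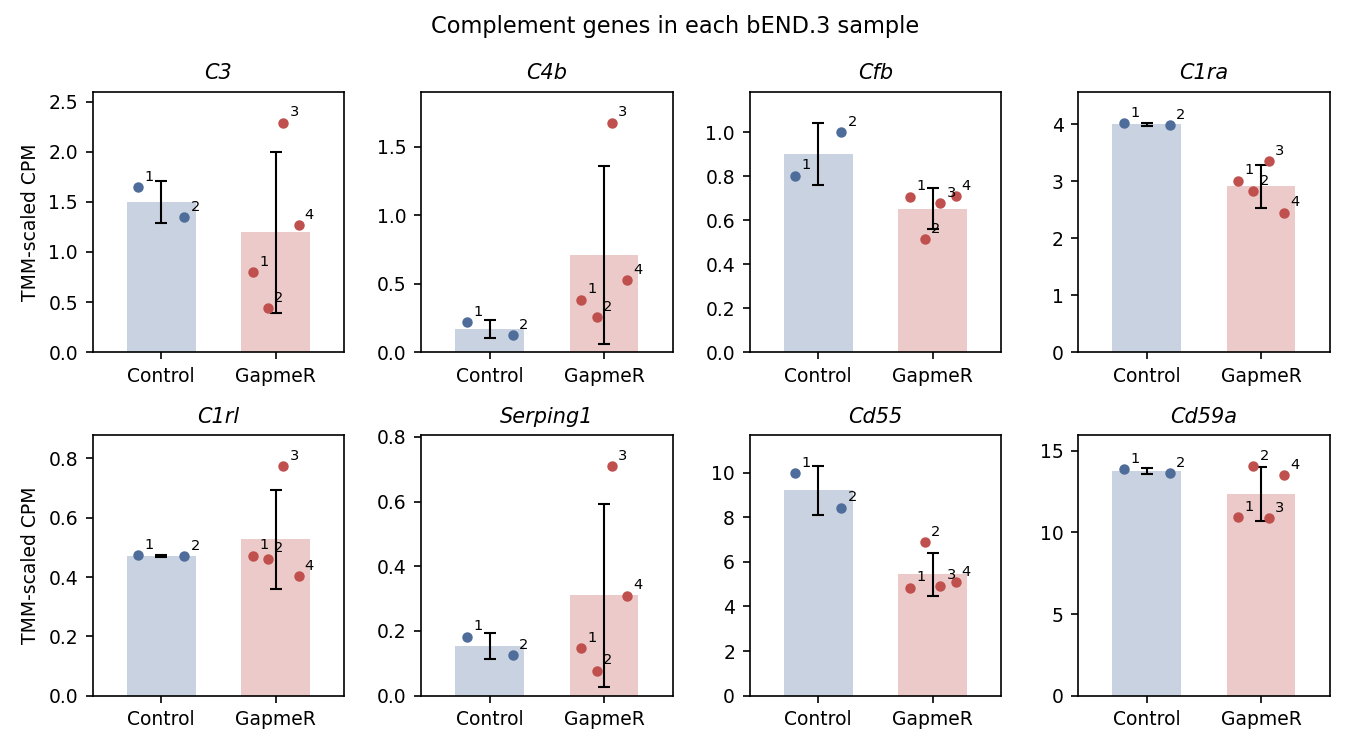
Scaled CPM (vertical axis, linear, from 0) of the 8 complement genes in each sample. Bars are group means, black lines are SDs (n = 2 controls, n = 4 GapmeR samples) and numbered points are samples. All 4 GapmeR points of Cd55 and C1ra lie below both controls, and GapmeR sample 3 is the highest point of C3, C4b, C1rl and Serping1.

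Among the components, C1ra fell. It encodes C1r, the protease that C1q activates and that in turn cleaves C1s. Its counts were 102, 110, 104 and 79 after knockdown and 110 and 127 in the controls. On the CPM scale the GapmeR samples were at 3.01, 2.83, 3.35 and 2.45 and the controls at 4.02 and 3.98, so the groups did not overlap. The means of 2.91 ± 0.378 CPM (SD, n = 4) and 4.00 ± 0.0256 CPM (SD, n = 2) correspond to 0.727 times the control level (log2 fold change -0.46, SE 0.17, edgeR adjusted p = 0.0418). This call was close to the threshold and held in 2 of 13 alternative settings. It was lost with DESeq2's Wald test (adjusted p = 0.0807), with scaling by library size only (log2 fold change -0.31, adjusted p = 0.159) and when any 1 library other than GapmeR sample 3 was left out. C1ra lies at chr6:124512621-124523440, and 26.3% of its windows are shared with C1rb, which had 1 to 4 counts in a sample and was not tested, so reads of the pair may be divided or lost.

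C1rl, the C1r-like protease gene, lies 1.76 kb before C1ra on the same strand (chr6:124493113-124510643). It had 16, 18, 24 and 13 counts after knockdown and 13 and 15 in the controls. The groups overlapped, at 0.528 ± 0.167 CPM (SD, n = 4) against 0.472 ± 0.00322 CPM (SD, n = 2), and the difference did not pass the test (log2 fold change 0.15, SE 0.39, edgeR adjusted p = 0.780). The adjacent pair gave 1 call between them, with no test of the difference. C1s1, which encodes the protease that C1r activates, lies 6.895 kb from C1ra on the opposite strand and had 2, 3, 17 and 8 counts against 2 and 5 (log2 fold change 0.91, SE 0.88, edgeR adjusted p = 0.423).

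C4b encodes C4, whose larger fragment attaches to surfaces and forms part of the classical convertase. It had 13, 10, 52 and 17 counts after knockdown and 6 and 4 in the controls, or 0.384, 0.257, 1.68 and 0.526 CPM against 0.219 and 0.125 CPM. All GapmeR values were above both controls, and sample 3 held more counts than the other 3 GapmeR samples together. The log2 fold change was 2.01 (SE 0.91) and did not pass (edgeR adjusted p = 0.106). An exact permutation test of the samples' log2 CPM gave p = 0.200 (2-sided), where the smallest p that 15 arrangements of 4 against 2 can give is 0.0667. C4b was called by DESeq2's Wald test (log2 fold change 2.05, adjusted p = 0.0204), without the filter on low counts (edgeR adjusted p = 4.92e-04) and without GapmeR sample 2 (log2 fold change 2.31, edgeR adjusted p = 0.0277), while without GapmeR sample 3 its log2 fold change was 1.18 (edgeR adjusted p = 0.0904). C4b is at chr17:34728139-34743902.

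C4a, the neighbouring copy of C4b in the same cluster of chromosome 17 (34809092 to 34823460), differed far more. In the mouse it encodes sex-limited protein, a C4-like protein without the same hemolytic activity, and RefSeq lists the gene as a transcribed pseudogene. It had 579, 612, 539 and 624 counts after knockdown and 12 and 16 in the controls, 17.4 ± 1.48 CPM (SD, n = 4) against 0.470 ± 0.0448 CPM (SD, n = 2). The log2 fold change was 5.19 (SE 0.18, edgeR adjusted p = 3.40e-12). C4a begins 0.528 kb behind Stk19 on the same strand, and whether these counts come from C4a mRNA was not tested. The GapmeR samples lay close together for C4a and spread widely for C4b. The transcripts share 7.89% of the windows of C4b and 8.28% of those of C4a. Since C4a had far more counts than C4b after knockdown, the shared windows do not limit how much of the C4b count could come from C4a. That part was not tested.

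C3, from which all routes continue, was not called. It had 27, 17, 71 and 41 counts after knockdown and 45 and 43 in the controls. GapmeR samples 1, 2 and 4 lay below both controls, at 0.797, 0.437 and 1.27 CPM against 1.64 and 1.35 CPM, while sample 3 lay above them at 2.29 CPM. The mean was 1.20 ± 0.803 CPM (SD, n = 4) after knockdown, against 1.495 ± 0.209 CPM (SD, n = 2), and the difference did not pass the test (log2 fold change -0.34, SE 0.54, edgeR adjusted p = 0.645). With GapmeR samples 1 and 2 only, a setting chosen after the data were seen, C3 was lower (log2 fold change -1.27, edgeR adjusted p = 0.00272), so whether it was called depended on samples 3 and 4. C3 is at chr17:57203967-57228136, and no 150-base window of its transcript was shared with another gene.

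Cfb encodes factor B, the serine protease of the alternative convertase. It had 24, 20, 21 and 23 counts after knockdown and 22 and 32 in the controls. The GapmeR samples were below both controls, 0.653 ± 0.0940 CPM (SD, n = 4) against 0.903 ± 0.141 CPM (SD, n = 2), but the difference did not pass (log2 fold change -0.48, SE 0.31, edgeR adjusted p = 0.218). In the annotation, 61.1% of the Cfb windows are shared with the overlapping gene Gm20547, which had 0 counts in every sample, and Cfb overlaps Nelfe on the other strand, so its count is uncertain. Cfb lies at chr17:34856374-34862514, next to C2, its counterpart in the classical pathway, which had 10, 20, 13 and 11 counts against 7 and 12 (log2 fold change 0.30, SE 0.44, edgeR adjusted p = 0.601).

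**Figure D2:**
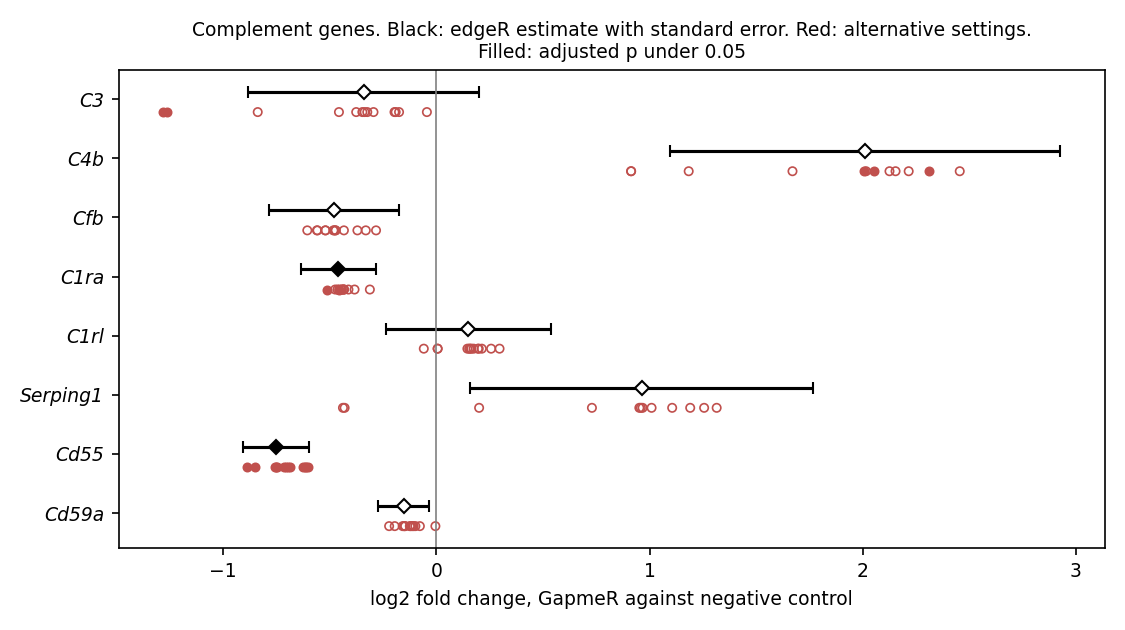
Log2 fold change of the 8 complement genes, GapmeR against negative control (horizontal axis). Black diamonds are the edgeR estimates with their standard errors, red circles the alternative settings, and filled symbols have an adjusted p under 0.05. Cd55 is filled throughout, from -0.89 to -0.60, while C3 and C4b are filled in some settings only and Serping1 has values on both sides of 0.

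Set beside each other per kilobase of exon, the membrane regulators and C1ra were the most abundant of the 8 in the controls. Cd59a stood at 2.19 ± 0.0272 CPM per kb (SD, n = 2), Cd55 at 1.56 ± 0.184 and C1ra at 1.25 ± 0.00802. These levels did not overlap between genes in the 2 controls. C3 (0.289 ± 0.0403 CPM per kb) and Cfb (0.264 ± 0.0413) did not differ beyond their spread. C1rl followed at 0.156 ± 0.00106, Serping1 at 0.0507 ± 0.0133 and C4b at 0.0284 ± 0.0109 CPM per kb. In the GapmeR samples the order was the same for Cd59a (1.96 ± 0.266 CPM per kb, SD, n = 4), while Cd55 (0.919 ± 0.164) and C1ra (0.912 ± 0.119) stood at the same level within their spread. C3 (0.231 ± 0.155), Cfb (0.191 ± 0.0275), C1rl (0.174 ± 0.0551), C4b (0.117 ± 0.108) and Serping1 (0.102 ± 0.0931) did not differ beyond their spread there.

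The spread within the GapmeR group divided the genes. For C3, C4b, C1rl and Serping1 sample 3 was the highest of the 6 samples, and for C3, C4b and Serping1 sample 2 was the lowest of the GapmeR samples and sample 4 the second highest. C1ra was also highest in sample 3 among the GapmeR samples but stayed below the controls. Cd55 and Cd59a did not follow this order, and both were highest in sample 2. The 3 C1q chains, products of macrophages and microglia in most tissues, summed to 15.4 and 13.4 CPM in GapmeR samples 3 and 4, 4.84 and 4.60 CPM in samples 1 and 2, and 4.02 and 3.92 CPM in the controls. The part of the macrophage and fibroblast markers in the C3, C4b and Serping1 values was not tested.

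**Figure D3:**
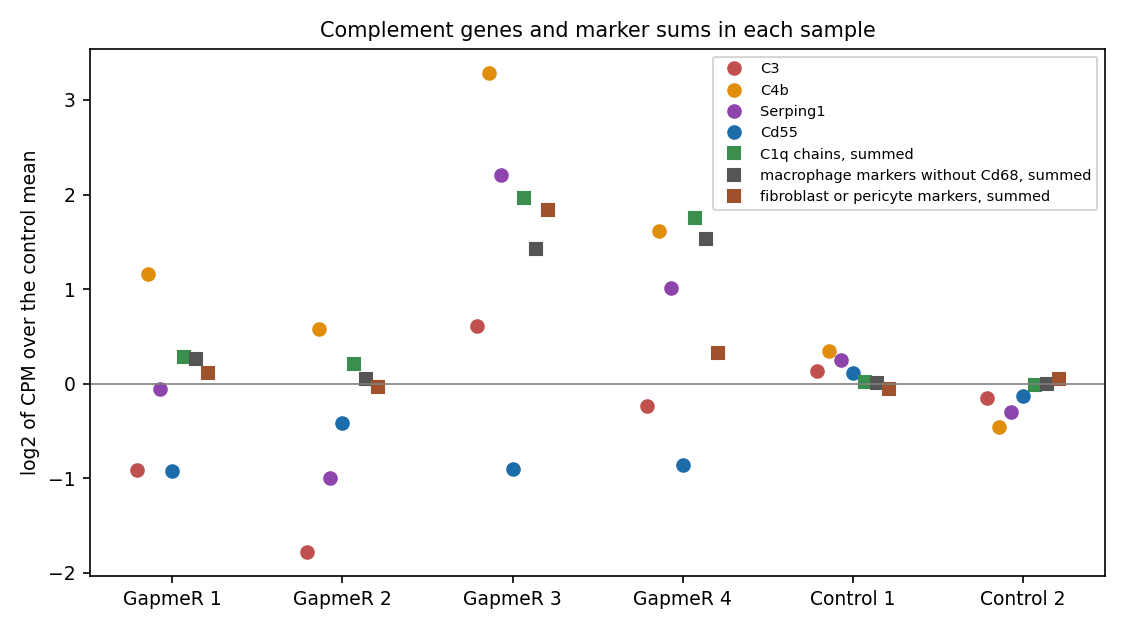
Log2 of CPM over the mean of the 2 controls (vertical axis) for 4 complement genes (circles) and 3 marker sums (squares) in each sample. C3, C4b and Serping1 are highest in GapmeR sample 3, where the summed C1q chains and the summed fibroblast or pericyte markers are also highest. The latter sum is mostly Col1a1 in that sample. The macrophage marker sum without Cd68 is highest in GapmeR sample 4. Cd55 is below 0 in all 4 GapmeR samples.

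The genes whose log2 CPM over the 6 samples was most like that of C3 were Dennd4b, Tln2, Pld3, Emilin2 and Taf6l, with Pearson correlations from 0.992 to 0.980 among the 12771 genes of at least 1 CPM. The 6 points share libraries and depth, and the values are a description. The range of these genes was far narrower than that of C3. Dennd4b, which encodes a DENN domain protein, ran from 9.63 to 14.5 CPM, with its lowest value in GapmeR sample 2 and its highest in sample 3. None of the 5 was called by edgeR, with adjusted p from 0.467 to 0.780.

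The nearest tested genes around the 8 gave calls in both directions. Beside Serping1, the ubiquitin-conjugating enzyme gene Ube2l6 (7.757 kb away, opposite strand) fell, with 405 ± 2.58 CPM (SD, n = 2) in the controls and 329 ± 13.8 CPM (SD, n = 4) after knockdown (log2 fold change -0.30, SE 0.07, edgeR adjusted p = 0.00297). On its other side Gm19426, 20.76 kb away, fell by 1.51 on the log2 scale (SE 0.22, edgeR adjusted p = 4.51e-05). Clstn3, 28.3 kb from C1rl and encoding a synaptic adhesion protein, fell by 0.84 (SE 0.30, edgeR adjusted p = 0.0378). Around Cfb the overlapping Nelfe fell by 0.48 (SE 0.15, edgeR adjusted p = 0.0311), and Skiv2l rose by 0.21 (SE 0.07, edgeR adjusted p = 0.0196). Nelfe encodes a subunit of the negative elongation factor and Skiv2l an RNA helicase. The nearest gene to Cd55, Gm15675, lies 1.541 kb beyond its end on the same strand and had 22, 21, 10 and 7 counts after knockdown against 1 and 0 in the controls (edgeR adjusted p = 0.00116). Gpr108 beside C3 (log2 fold change -0.11), Tnxb beside C4b (0.63) and D430041D05Rik beside Cd59a (-0.66) were not called.

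The rest of the pathway was read from a list of 52 further complement genes, of which 28 were tested. Of these 28, 6 were higher, 3 were lower and 19 were not called by edgeR, so that 32.1% were called, against 45.3% of all genes tested, and the median log2 fold change was 0.97. The 24 not tested had at most 8 counts in a sample, and 9 of them had 0 counts in all samples.

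Among the 16 further genes of classical and lectin initiation, 9 were tested, 2 were higher and 0 were lower by edgeR, also at an unadjusted p under 0.05 and by DESeq2's Wald test. Beside C4a, the gene higher was Masp2, the protease of the lectin pathway that cleaves C4 and C2. Masp2 had 50, 63, 60 and 56 counts after knockdown against 2 and 5 in the controls. It overlaps Tardbp on the opposite strand (mean 118.5 CPM, log2 fold change 0.06, edgeR adjusted p = 0.589). The strand setting is not known, so the Masp2 count is uncertain, and the part of Tardbp reads in it was not tested. The ratio of pooled counts was 14.3 (exact 95% interval 6.81 to 35.8, covering counting error only), and the log2 fold change was 3.80 (SE 0.40, edgeR adjusted p = 1.11e-06). C1qc had 69, 99, 210 and 211 counts against 48 and 58, above the controls in every GapmeR sample, but did not pass (log2 fold change 1.31, SE 0.66, edgeR adjusted p = 0.171).

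Both further genes of the alternative pathway were tested. Cfp encodes properdin, which stabilises the convertase that Cfb and C3 form. It rose, with a control level of 1.58 ± 0.0200 CPM (SD, n = 2), a GapmeR level of 14.9 ± 1.63 CPM (SD, n = 4) and 446, 585, 449 and 552 counts against 43 and 51 (log2 fold change 3.23, SE 0.16, edgeR adjusted p = 1.29e-10). The Cfp level was higher in every GapmeR sample, while C3 and Cfb, which encode its partners, were not called, with no test of the difference between genes. Cfp begins 0.297 kb behind Elk1 on the same strand, and whether the Cfp counts come from properdin mRNA was not tested. Cfd, encoding factor D, was at 1.23 ± 0.335 CPM against 1.32 ± 0.215 CPM (log2 fold change -0.09, SE 0.28, edgeR adjusted p = 0.813). Of the 7 terminal genes only C8g was tested, with a log2 fold change of 0.32 (SE 0.34, edgeR adjusted p = 0.473).

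Among the 11 fluid-phase regulators, 4 were tested and 1 was higher. Cpn2, the regulatory subunit of the carboxypeptidase that inactivates anaphylatoxins, had 28, 48, 38 and 54 counts after knockdown against 2 and 0 in the controls. The ratio of pooled counts was 36.6 (exact 95% interval 9.97 to 305), and the difference passed (edgeR adjusted p = 1.18e-05). Clu, which encodes clusterin, was far more abundant, at 19.2 ± 6.12 CPM (SD, n = 4) against 22.5 ± 1.82 CPM (SD, n = 2), and was not called (log2 fold change -0.23, SE 0.32, edgeR adjusted p = 0.598).

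Of the 7 further membrane regulators, 6 were tested, 1 was higher and 2 were lower. The gene higher was Cd59b, described above. Thbd encodes thrombomodulin, an endothelial protein that limits coagulation and favours inactivation of C3b. It fell, and its level was 745 ± 8.90 CPM (SD, n = 2) in the controls and 514 ± 26.9 CPM (SD, n = 4) after knockdown (log2 fold change -0.54, SE 0.07, edgeR adjusted p = 2.38e-05). Cr1l encodes Crry, the rodent membrane inhibitor that shares the activity of CD55. Its level fell to 57.7 ± 4.74 CPM (SD, n = 4), against 72.0 ± 3.95 CPM (SD, n = 2) in the controls (log2 fold change -0.32, SE 0.08, edgeR adjusted p = 0.00435). Cr1l was not called when scaled by library size only, with GapmeR samples 1 and 2 only or without control 1. Cd46 had 5, 15, 4 and 8 counts against 2 and 2 and was not called (edgeR adjusted p = 0.0727). The membrane convertase inhibitors Cd55 and Cr1l were both lower in the GapmeR samples. Cd46 was higher without a call (log2 fold change 1.73, SE 0.75). The median log2 fold change of the 6 further membrane regulators tested was 0.05.

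Among the 9 receptors, 6 were tested, 1 was higher and 1 was lower. Itgax, a chain of complement receptor 4 of myeloid cells, had 54, 81, 150 and 102 counts against 24 and 41 (log2 fold change 1.41, SE 0.47, edgeR adjusted p = 0.0382), and its call was lost without GapmeR sample 4 and without either control. C5ar1, the receptor of C5a, had 32, 42, 107 and 73 counts against 16 and 25 (log2 fold change 1.47, SE 0.60, edgeR adjusted p = 0.0786), and Itgb2, the beta chain that pairs with Itgax, had 168, 203, 464 and 475 counts against 104 and 147 (log2 fold change 1.23, SE 0.71, edgeR adjusted p = 0.236). All 3 were highest in GapmeR samples 3 and 4, as was the macrophage marker sum without Cd68, and the part of those markers was not tested. Cd93, an endothelial and myeloid protein once described as a C1q receptor, fell to 512 ± 22.9 CPM (SD, n = 4), against 785 ± 29.5 CPM (SD, n = 2) in the controls (log2 fold change -0.62, SE 0.07, edgeR adjusted p = 5.01e-06). Cr1l and Cd93 were named after their values were seen.

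**Figure D4:**
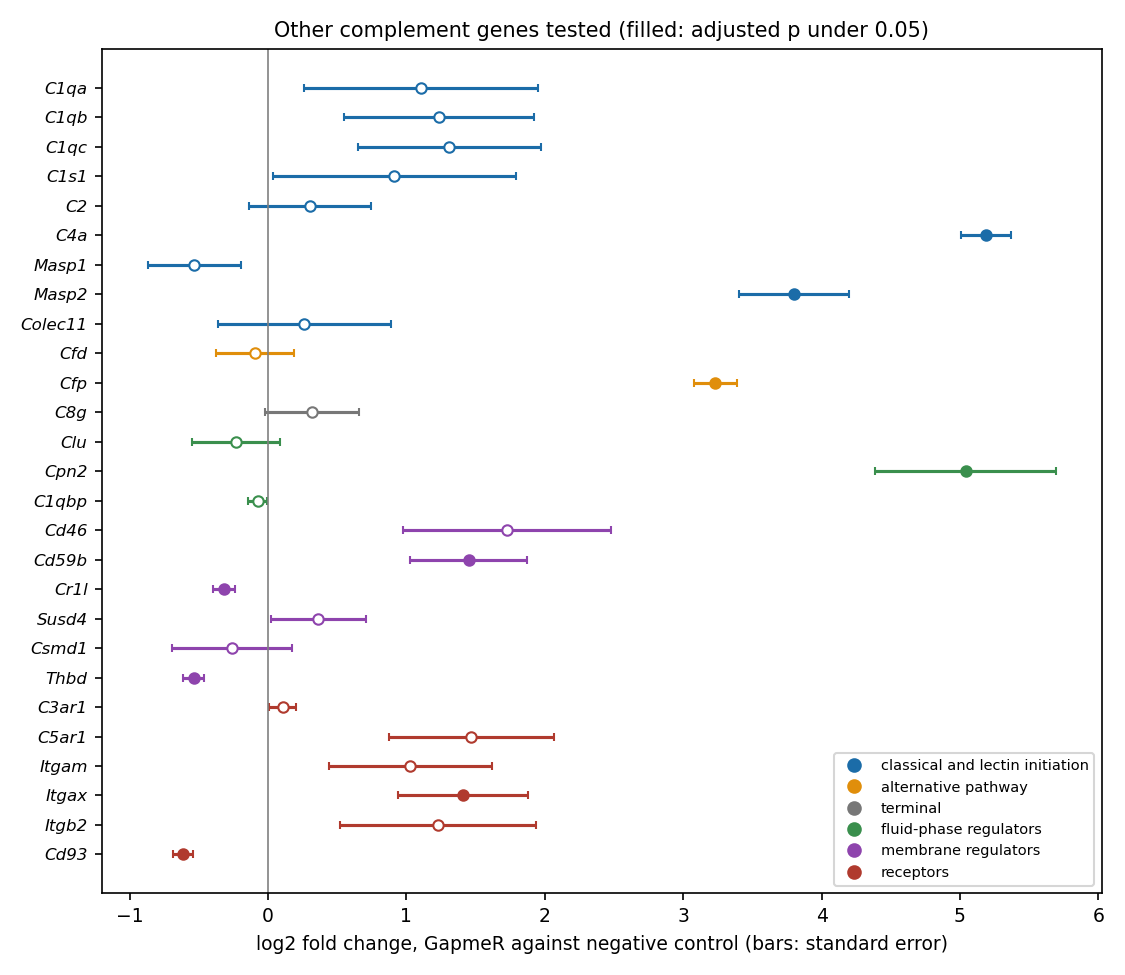
Log2 fold change (horizontal axis, GapmeR against negative control, with standard errors) of 27 of the 28 further complement genes tested, coloured by role. Filled circles have an adjusted p under 0.05, with 6 higher and 3 lower, and C4a at 5.19, Cpn2, Masp2 and Cfp are the farthest to the right.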

How the data were processed

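RNA sequencing of 4 GapmeR and 2 Negative Control samples of bEND.3 cells was analysed. The authors deposited unnormalized whole-number counts of reads for each Ensembl gene. Ribosomal RNA was depleted, paired reads were sequenced and trimmed reads were aligned to mm10 by STAR. The submitters' processing notes name Trimmomatic 0.36, STAR 2.5.2b and Subread 1.5.2. The counting options, strand setting and Ensembl release are not given in the sources used here, so overlapping, antisense or near-identical genes may share or lose reads. The study gives 4 samples for each group, and the table held 1 further column of per-sample counts, which was not used.

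Genes reaching 5 counts in 2 or more samples were tested with edgeR 4.0.16 in R 4.3.3 (TMM, robust quasi-likelihood F test, Benjamini-Hochberg adjustment over all 18234 genes tested). The SE is the log2 fold change divided by the square root of F. CPM are TMM-scaled, and SDs are between samples. Total counts were 29261988 to 37117934 per sample. Floors and intervals cover counting error only. Chi-square per degree of freedom between samples of a group was 6.44 to 31.9, so no library was a repeat of another. Replicate numbers come from the titles. Alternatives were DESeq2 1.42.0 (size factors and Wald test), library-size scaling, other filters, a 1.5-fold threshold, the replicate block and each sample left out, and GapmeR samples 1 and 2 only was added after seeing the data. The fit was tested on simulated data. There every gene had the same dispersion between samples and only well-counted genes were changed, so changes in genes of few counts were not covered.

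The members and lists were chosen with earlier results of these data known. Genes named are the 8 members, up to 3 tested genes of each role with the largest absolute log2 fold change, the paralogs C4a, C1rb, Cd55b and Cd59b, the nearest tested neighbours within 50 kb, the 5 genes most like C3 (Pearson correlation of log2 of CPM plus 0.05) and Gm39822. Cr1l, Cd93, the cell type markers, genes of the closing section outside this rule and the neighbours behind which other complement genes begin were named after their values were seen. The rule named 1 further gene that is not reported here. Gene positions and promoters are RefSeq's of GRCm38.p6 (mm10), while exon lengths, neighbour distances and shared 150-base windows come from GENCODE's annotation of GRCm39, compared by gene symbol and never by converted coordinates. Python 3.11.15, pandas 2.3.3 and scipy 1.17.1 were used.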

Additional observations from a re-analysis of the deposited data

Results flagged for a closer look

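In 45 groups of 4 GapmeR samples examined (the complement genes tested and the marker sums), 4 samples lay far from the other 3 by Dixon's criterion, where chance flags about 1 in 20 groups. Cd55 in GapmeR sample 2 was 6.88 CPM, above the other 3 GapmeR samples (4.84 to 5.08 CPM) and still below both controls. Colec11, a lectin of the complement system, was 0.279 CPM in GapmeR sample 4, from 9 counts. The summed endothelial markers were 8735 CPM in GapmeR sample 2, against 9792 to 9914 CPM in the others. The summed fibroblast or pericyte markers were 50.4 CPM in GapmeR sample 3, of which Col1a1 held 1179 counts.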

How the results depend on the processing

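Cd55 was lower in all 13 alternatives, Cfb and Cd59a were called in none and kept their sign, and the count of other complement genes called stayed within 1.5 times. The members called numbered 1 instead of 2 with library size only, with at least 10 counts in every sample and with a 1.5-fold threshold, and 1 to 2 with a sample left out. C1ra lost its call with library size only (-0.31), DESeq2's Wald test (-0.46), no filter (-0.46), at least 10 counts in every sample (-0.41), the replicate block (-0.43) and GapmeR samples 1 and 2 only (-0.43), and ranged from -0.51 to -0.38 with a sample left out, where it was called only without GapmeR sample 3. C3 was called lower with the replicate block (-1.28) and with GapmeR samples 1 and 2 only (-1.27). C4b was called with DESeq2's Wald test (2.05) and no filter (2.01), and ranged from 1.18 to 2.45 with a sample left out. Serping1 reversed with the block (-0.44) and with samples 1 and 2 only (-0.43), and C1rl without GapmeR sample 3 (-0.059, and up to 0.26 with another sample left out). With a sample left out, C3 ranged from -0.84 (GapmeR sample 3) to -0.04. The causes were not tested. C4b and Serping1 had no value with at least 10 counts in every sample, where 3 other complement genes were higher, and 1 was lower at the 1.5-fold threshold. Library size only raised the median of all genes from 0.03 to 0.17 and the share of calls that were higher from 55.9% to 74.1%.

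A fit blocked on the replicate number uses 4 samples and 1 residual degree of freedom, since only numbers 1 and 2 are in both groups. Same-numbered deviations from the group mean correlated at -0.11 and 0.18 over 8870 genes. With 2 controls these deviations are opposite by construction, so the correlations cannot show whether the samples were paired. C4b, C1rl, Serping1 and Cfb had at most 52 counts in any sample, and their SEs of 0.31 to 0.91 on the log2 scale limit what the test could show.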

Other observations

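The position of each gene behind its neighbours was examined. For each tested gene, the nearest same-strand gene that began before it and averaged at least 1 CPM over the 6 samples was sought. The annotated end of that neighbour had to lie within 10 kb before the start of the tested gene or inside the tested gene. The measure was chosen after the values were seen and is given with no test. Such a gene was present for 20.3% of the 17965 tested genes with a position, 32.7% of the genes called higher, 17.0% of those called lower and 48.8% of those at least 8-fold higher. It was present for 1 of the 8 members (C3, behind Gpr108), for 5 of the 6 other complement genes called higher, for 0 of the 3 called lower and for 4 of the 19 not called.

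C4a began 0.528 kb behind the end of Stk19, which fell to 18.5 ± 1.48 CPM (SD, n = 4), against 35.1 ± 0.995 CPM (SD, n = 2) in the controls (log2 fold change -0.92, edgeR adjusted p = 3.56e-07). Cfp began 0.297 kb behind Elk1 (log2 fold change -0.22), Masp2 5.193 kb behind Srm (-0.02) and Cd59b 1.922 kb behind Fbxo3 (-0.17). Cpn2 began 1.73 kb behind Lrrc15, which itself had 116, 165, 131 and 129 counts in the GapmeR samples against 0 and 3 in the controls. Lrrc15 passed the limit of 1 CPM only through the GapmeR samples (mean 3.97 CPM, against 0.047 CPM in the controls). The sixth, Itgax, had no such gene.

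Markers of cell types that bEND.3 cells are not labelled as moved too. Apoa1, an apolipoprotein of liver and gut, had 707, 789, 683 and 654 counts against 10 and 6, while Alb had at most 2 and Ttr at most 3 counts in any sample. Myh11, the smooth muscle myosin, had 182, 210, 184 and 189 counts against 10 and 8. These values were alike in all 4 GapmeR samples, unlike those of C3, C4b and Serping1. Of the endothelial markers, 2 of 11 were higher and 5 lower, and of the astrocyte markers 2 of 4 were lower. Of the 3 smooth muscle markers tested 2 were higher (Myh11 and Tagln). Acta2, the other, had 24, 16, 80 and 42 counts against 18 and 16 and was not called (edgeR adjusted p = 0.284). Of the 2 epithelial markers tested 1 was higher (Krt8, not called by DESeq2's Wald test). These stand beside 45.3% of all genes tested that were called. The fibroblast or pericyte markers gave 0 calls of 7 by edgeR and by DESeq2's Wald test, with 1 (Dcn, lower) at an unadjusted p under 0.05.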
